A study of Mus musculus with 9 samples.

Results

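The genes described here encode the proteins of the cytosolic ribosome. They were chosen by name from the protein-coding genes of the mouse RefSeq annotation (GRCm38, the build mm10) on chromosomes 1 to 19 and X: Rpsa, Rplp0, Rplp1, Rplp2, and every symbol that starts with Rpl or Rps and a digit, without the Rps6k kinases and Rps19bp1. The rule found 90 of 21631 genes, and no measured value entered it. Of the 90, 43 encode proteins of the large subunit and 31 of the small subunit. Rplp0, Rplp1 and Rplp2 make the stalk of the large subunit. The other 13 are paralogs or other copies, 10 of them named as paralogs (Rpl22l1, Rpl37rt, Rps27l, Rps27rt, Rpl32l, Rpl10l, Rpl36al, Rpl39l, Rpl3l and Rpl7l1), with Rpl34-ps1, Rpl31-ps12 and Rps23rg1.

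The study mapped 1 histone mark, H3R2me2a, by chromatin immunoprecipitation and sequencing (ChIP-seq) in mouse bone marrow cells, called leukemia cells in its design text. The mark is the asymmetric dimethylation of arginine 2 of histone H3, written by the enzyme PRMT6. The groups were wild type (WT), Prmt6KO (Prmt6-/-) and Igf2bp2KO (Igf2bp2-/-), with 2 H3R2me2a libraries each. The antibody was from EPIGENTEK. All cells were grown with interleukin 3, interleukin 6 and stem cell factor and fixed with formaldehyde. What started the leukemia, the sex and age of the mice and the deleted parts of both genes are not stated in the sources at hand. Peak lists carry no expression values, so the cell type was not checked against its markers.

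Each ribosome subunit is built from ribosomal RNA and many small proteins in fixed proportions. The genes for these proteins are short, are transcribed in nearly every cell and are among the most active genes of growing cells. Their messages usually start with a run of pyrimidines at the 5' end, the TOP tract, through which the mTOR pathway controls their translation. PRMT6 and H3R2me2a are known to counteract trimethylation of lysine 4 on the same histone tail, a mark of active start sites. In blood, loss of 1 copy of several of these genes causes Diamond-Blackfan anemia, and loss of RPS14 contributes to the anemia of the 5q- syndrome.

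Promoter letters show what kind of start site these genes have. RefSeq promoter entries (GRCm38.p6, 250 bases before to 50 after the start) matched 69 of the 90 members. Their promoters had a median GC content of 57.0% (range 34.7% to 72.3%), beside 56.3% in the 17205 other genes with an entry. The median number of CpG dinucleotides per 300 bases was 21 in members and 13 in other genes. A TOP tract was searched on the coding strand as a C at the annotated start followed by at least 4 more C or T. It was found in 15 of the 69 members (21.7%) and in 2.7% of the 17274 genes with an entry. The search depends on the exact annotated base, so a tract at a start annotated slightly off is missed. In Rpl22l1, printed below, a run of C and T begins just after the annotated start base and was not counted. The shares are therefore not the shares of genes with a TOP message. Each sequence printed here runs from 100 bases before to 24 bases after its start base, with CpG in capitals. Rps9 is shown because it had a peak in both WT lists, and the others because a Prmt6KO peak overlapped the promoter entry. They lie at chr7:3703941-3704065 (plus strand), chr11:98026610-98026734 (plus strand), chr3:28805408-28805532 (plus strand), chr7:4792865-4792989 (plus strand), chrX:134585554-134585678 (plus strand) and chr17:46782632-46782756 (minus strand). Rpl28 has the TOP tract CTCTTTCC at its start.
Rps9: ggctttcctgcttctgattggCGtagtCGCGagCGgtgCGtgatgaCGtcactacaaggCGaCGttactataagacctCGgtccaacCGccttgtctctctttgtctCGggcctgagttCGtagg
Rpl19: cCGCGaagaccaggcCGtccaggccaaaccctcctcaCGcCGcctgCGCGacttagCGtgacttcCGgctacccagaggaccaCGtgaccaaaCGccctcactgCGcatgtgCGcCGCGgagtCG
Rpl22l1: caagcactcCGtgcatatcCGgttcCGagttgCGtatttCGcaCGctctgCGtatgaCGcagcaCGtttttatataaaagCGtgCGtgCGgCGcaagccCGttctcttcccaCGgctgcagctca
Rpl28: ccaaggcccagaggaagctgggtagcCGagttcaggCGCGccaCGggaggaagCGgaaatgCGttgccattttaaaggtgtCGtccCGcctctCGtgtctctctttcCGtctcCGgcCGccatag
Rpl36a: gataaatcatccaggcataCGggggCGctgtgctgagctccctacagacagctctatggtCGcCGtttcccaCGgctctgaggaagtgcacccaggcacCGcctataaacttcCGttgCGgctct
Rpl7l1: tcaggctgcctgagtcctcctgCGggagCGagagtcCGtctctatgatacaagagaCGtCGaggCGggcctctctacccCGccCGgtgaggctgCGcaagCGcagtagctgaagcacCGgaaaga
The stretches hold 12, 16, 15, 12, 8 and 11 CpG in that order, so Rpl36a has the fewest and Rpl19 the most.

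The 6 lists differ greatly in length and in how low a peak they hold. On chromosomes 1 to 19 and X there were 162454 and 133960 peaks for WT. For Prmt6KO there were 812414 and 430225, and for Igf2bp2KO only 961 and 1221. A listed summit had at least 4 fragments in either WT library, at least 2 and 3 in those of Prmt6KO, and at least 8 and 7 in those of Igf2bp2KO. WT replicate 1 stood apart on chromosome X, which held 1.25% of its peaks and 5.1% to 7.94% of those in the other lists. Results that rest on it are therefore also given without it. Separate mice or cultures are not named for the libraries of a genotype, so their spread may be technical.

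Peaks were counted where they overlapped a member or the 1 kb on either side of it. Members are short, from 374 to 16779 bp with a median of 3169.5 bp, where the median gene has 17329 bp. Longer genes met more peaks in the WT and Prmt6KO lists. Each count is therefore set beside the number expected from all other genes within 10% of the same length, between 22 and 1300 genes per member.

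At this scale the H3R2me2a peak counts of the ribosomal protein genes lay above those of other short genes in 1 library and below in the other, in WT and in Prmt6KO. WT replicate 1 had 33 member peaks where like-length genes gave 24.9, and WT replicate 2 had 9 where they gave 16.9. Prmt6KO replicate 1 had 165 with 151 expected, and replicate 2 had 51 with 57.9 expected. The ratio of observed to expected peaks was thus 1.32 and 0.533 in WT and 1.09 and 0.88 in Prmt6KO. The WT libraries lay on opposite sides of both Prmt6KO libraries. Exact Poisson intervals of 95%, which cover counting error only, ran from 0.911 to 1.86 and from 0.244 to 1.01 in WT. In Prmt6KO they ran from 0.931 to 1.27 and from 0.655 to 1.16. All 4 intervals hold 1, which does not show that the counts are equal, and those of WT are wide.

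**Figure D1:**
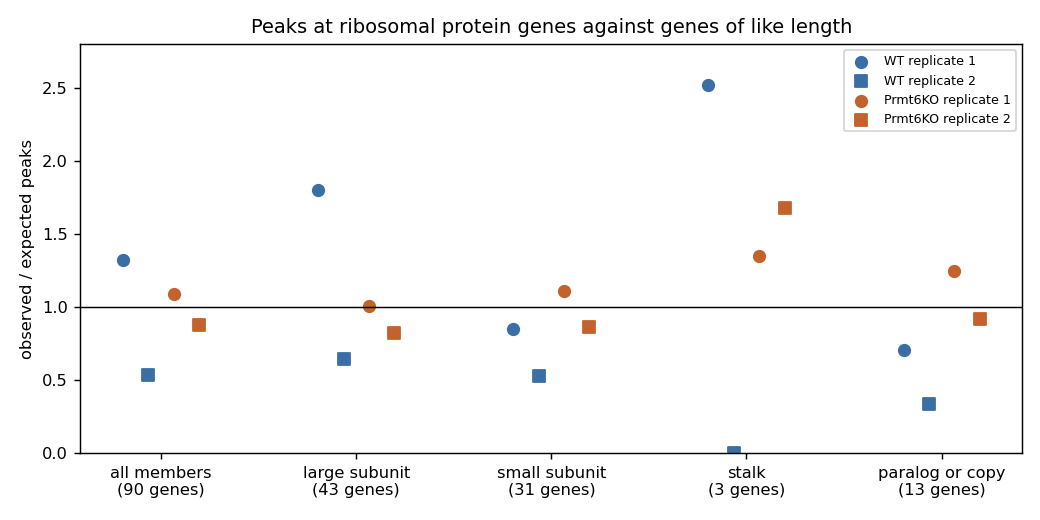
Observed over expected peaks (y axis, linear, no unit) for all members and for each role (x axis), with blue for WT, orange for Prmt6KO, circles for replicate 1 and squares for replicate 2; each point is 1 library, and the line at 1 marks the level of genes of like length. For all members the WT points lie at 1.32 and 0.533, with the Prmt6KO points at 1.09 and 0.88 between them.

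The Prmt6KO libraries had more member peaks than the WT libraries, and their lists were longer throughout the genome. The mean was 108 ± 80.6 peaks in Prmt6KO and 21 ± 17 in WT (SD, n = 2). The means of the per-library log2 peaks per kb differed by 2.41, or 5.32-fold. Both Prmt6KO libraries lay above both WT libraries (two-sided exact permutation p = 0.33, the smallest that 2 libraries against 2 allow). With the 4 lists made equally long, the log2 difference was 0.295 (exact permutation p = 0.667). Relative to genes of like length the mean ratio was 0.986 ± 0.149 in Prmt6KO and 0.928 ± 0.559 in WT. The difference between the means of the per-library log2 ratios was 0.22 (two-sided exact permutation p = 1.0), less than the spread between the WT libraries. It was 0.88 without WT replicate 1 (exact permutation p = 0.33) and -0.43 without WT replicate 2 (p = 0.667), so its direction rests on which WT library is used.

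Counted by gene, 29 members had a peak in WT replicate 1, where 18.3 were expected, and 9 in replicate 2, where 13.3 were expected. Of all 21631 genes, 55.8% and 48.8% had a peak in these lists. In Prmt6KO 73 and 44 members had a peak, with 70.9 and 37.7 expected and 92.4% and 75.4% of all genes. No member had a peak in all 4 of these lists, where like-length genes gave 2.94 and 37.2% of all genes had this pattern. No peak was listed in any of the 6 lists at 7 members, where 11.2 were expected and 4.1% of all genes had none. Rpl32, Rpl13a, Rpl41 and Rpl10l were among them. Rpl41 encodes the smallest protein of the ribosome and Rpl10l is a testis copy of Rpl10. Of the remaining members, 31 had a peak in 1 list, 32 in 2 lists and 20 in 3 lists.

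**Figure D2:**
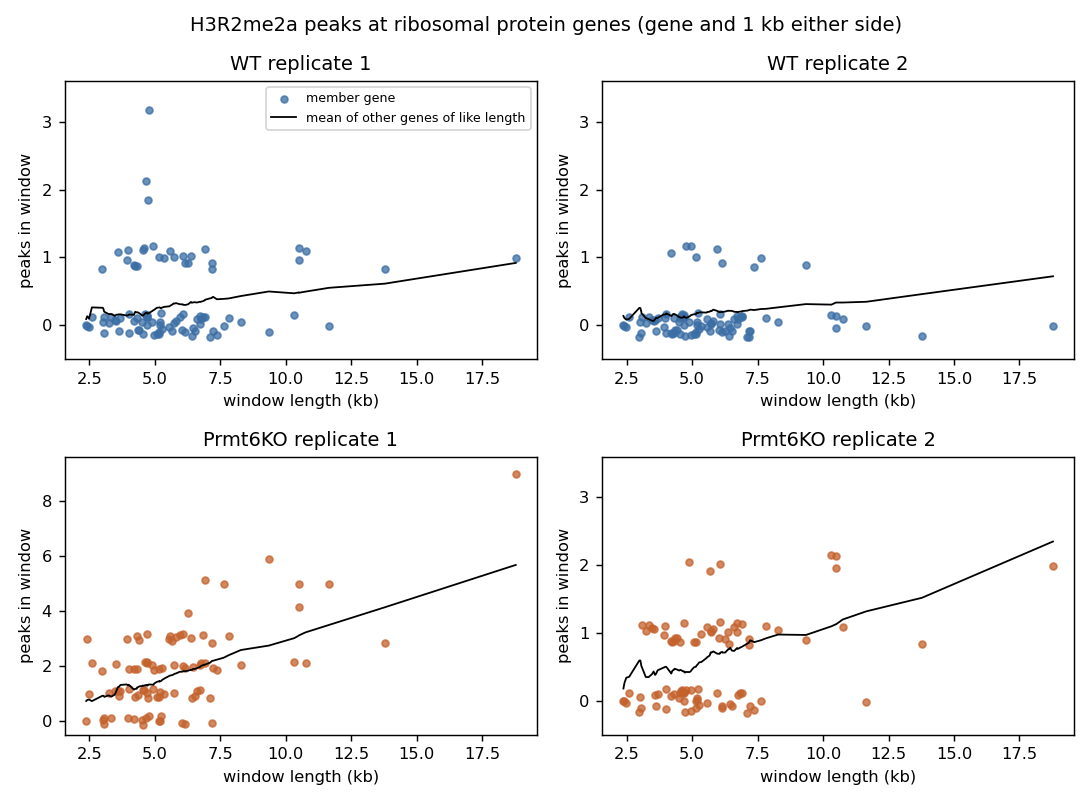
Peaks per member (y axis, count) against the length of the gene with its 1 kb flanks (x axis, kb) in each WT and Prmt6KO library; points are the 90 members, moved slightly up or down so that equal counts can be seen, and the line is the mean of other genes of like length. Most members had 0 or 1 peak in the WT lists, and Rps23rg1, the longest, had 9 in Prmt6KO replicate 1.

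A member was called in a genotype when both libraries had a peak in its window. In WT 4 of 90 members were called, where 4.56 were expected from like-length genes and 38.6% of all genes were called. The 4 were Rpl7, Rpl30, Rpl21 and Rps9, so 3 of them encode large-subunit proteins. Without WT replicate 1 the remaining library alone gave 9 members, and without replicate 2 it gave 29.

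Rpl30 encodes a large-subunit protein of a family that binds kink-turns in RNA. It lies on chromosome 15 (34440505 to 34443276) and had 3 peaks in WT replicate 1, 1 in replicate 2 and 0 in each Prmt6KO and Igf2bp2KO list. It was the only member where peaks of both WT libraries overlapped. The replicate 1 peak there (34440559 to 34441135) had 6 fragments at its summit and a fold enrichment of 2.84. The replicate 2 peak (34441102 to 34441337) had 7 fragments and a fold enrichment of 3.28. Both lay inside the gene. Neither reached a q of 0.05.

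Rpl7 encodes a large-subunit protein and lies on chromosome 1 (16101295 to 16104433). Its WT peaks had 5 fragments in replicate 1 (16101703 to 16102034, fold enrichment 2.44) and 4 fragments in replicate 2 (16101217 to 16101416, fold enrichment 2.05), and they did not overlap. Both Prmt6KO lists had 0 peaks there. Rpl7 and Rpl30 were therefore counted as lost in Prmt6KO, meaning called in WT with no peak in either knockout library. These 2 losses stand beside 0.37 expected from like-length genes and 0.157% of all genes. With flanks of 2.5 kb the number lost was 0, and without Prmt6KO replicate 1 it was 4.

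Rps9, a small-subunit protein known for its part in decoding accuracy, lies on chromosome 7 (3703954 to 3706897). WT replicate 1 had a peak inside the gene with 7 fragments and a fold enrichment of 3.25. WT replicate 2 had a peak in the downstream flank with 5 fragments and 2.46. Prmt6KO replicate 1 had 1 peak with 3 fragments that overlapped the latter, and Prmt6KO replicate 2 had 0. The nearest WT summit was 1979 bp from the start site, outside the promoter printed for it. Rpl21, another large-subunit gene (chromosome 5, 146832890 to 146837032), had 5 and 7 fragments in the WT lists, with fold enrichments of 2.44 and 3.28 at separate places. Its Prmt6KO lists had 2 and 0 peaks.

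In Prmt6KO 38 members were called, where 32.1 were expected and 73.0% of all genes were called. Another 20 members counted as gained, meaning no peak in WT and a call in Prmt6KO, and these are part of the 38. Like-length genes gave 18.3 gains, and 15.3% of all genes were gained. With lists of equal length 6 members were called and 3 gained. Without WT replicate 1, 37 were gained, and without Prmt6KO replicate 2, 73 were called and 45 gained. Those 73 are the members with a peak in Prmt6KO replicate 1, where 70.9 were expected and 92.4% of all genes had one. No such shares are given for the other alternatives. At a q of 0.05 or below none was called or gained. The gained member with the highest lower fold enrichment was Rps28, whose protein lies near the mRNA exit channel of the small subunit. It had 2 and 1 Prmt6KO peaks, the highest with 4 and 6 fragments and fold enrichments of 2.88 and 3.17. The next were Rpl36a, Rps18, Rps2, Rps3 and Rps3a1, each with a lower value of 2.72. Rpl13, Rpl17, Rpl31 and Rpl39l followed with 2.3. Rps2 and Rps3 belong to the mRNA entry site of the small subunit, and Rpl17 and Rpl31 surround the exit of the peptide tunnel.

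Peaks of both Prmt6KO libraries overlapped each other at 11 members. At Rpl19, a large-subunit gene on chromosome 11, they met 2763 and 2756 bp after the start site, with 4 and 6 fragments and fold enrichments of 2.88 and 3.17. At Rps2 the overlapping peaks had 4 and 5 fragments and lay just past the gene (24722222 to 24722470 and 24722042 to 24722418 on chromosome 17). Rpl24, Rps18, Rps23rg1, Rpl34, Rps15a, Rps27a, Rpl37rt, Rpl3l and Rps13 were the others, with lower fold enrichments from 1.73 to 2.3. Of these 11, Rps2, Rps18, Rps13 and Rpl3l had no WT peak. Overlap between replicates is given for members beside all genes, with no test. In Prmt6KO 6.67% of replicate 1 member peaks and 21.6% of replicate 2 member peaks overlapped the other library, beside 10.2% and 21.2% of the peaks at all genes. The WT shares were 3.03% and 11.1%, which is 1 peak each, beside 5.63% and 7.06%.

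By role, the groups lay on both sides of the level of like-length genes. Large-subunit genes had 21 and 5 peaks in WT and 72 and 22 in Prmt6KO, which is 1.8, 0.648, 1.01 and 0.823 times the expected number. The first of these had an exact Poisson interval of 1.11 to 2.75. Small-subunit genes had 7, 3, 56 and 17 peaks, or 0.852, 0.528, 1.11 and 0.864 times the expected number. The 3 stalk genes, whose proteins recruit the GTPases of translation, had 2, 0, 6 and 3 peaks, where 0.793, 0.519, 4.45 and 1.78 were expected. The paralogs and copies had 3, 1, 31 and 9 peaks, or 0.709, 0.335, 1.25 and 0.921 times the expected number. Each of the intervals for small-subunit, stalk and copy genes held 1.

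Some members matter in blood disease and are given for that reason, chosen after their values were seen. Rpl5 and Rpl11 bind the 5S ribosomal RNA and restrain MDM2, the inhibitor of p53. Rpl5 had 1 and 0 WT peaks and 5 and 2 Prmt6KO peaks, and the WT peak had 7 fragments and overlapped a Prmt6KO peak of 3 fragments. Rpl11 had 0 and 0 in WT and 0 and 1 in Prmt6KO. Rps19, the gene most often mutated in Diamond-Blackfan anemia, had 0 and 0 in WT and 2 and 0 in Prmt6KO. Rps14, the gene of the 5q- syndrome, had 0 and 1 in WT and 3 and 0 in Prmt6KO. None of these 4 was called in WT, and Rpl5 was the only one called in Prmt6KO. The 4 are not a full list of the members that matter in blood disease, so they give no share for such genes. Genes of the length of the 90 members were called at 5.07% in WT and 35.7% in Prmt6KO, and all genes at 38.6% and 73.0%. So few members cannot be told apart from these shares.

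Peaks at a gene and at its paralog are given side by side, first for the WT lists and then for the Prmt6KO lists. Rpl22, which T cell development needs, had 0 and 0 WT peaks and 5 and 0 Prmt6KO peaks, while Rpl22l1 had 1 and 0, then 3 and 1. Rpl7 had 1 and 1, then 0 and 0, and Rpl7l1 had 1 and 0, then 2 and 1. Rpl3, a protein of the peptidyl transferase centre, had 0 and 1, then 5 and 0, and its muscle paralog Rpl3l 0 and 0, then 2 and 2. Rpl37 had 1 and 0, then 1 and 0, and Rpl37rt 0 and 1, then 6 and 1. Rpl39 had 0 and 0, then 2 and 0, and Rpl39l 0 and 0, then 1 and 1. Rpl36a had 0 and 0, then 3 and 1, and Rpl36al 0 and 0, then 0 and 1. Rpl10 had 1 and 0, then 2 and 1, where Rpl10l had 0. Rpl32 had 0 throughout and Rpl32l 0 and 0, then 2 and 0. Rps27 had 1 and 0, then 2 and 0, Rps27l 0 and 0, then 2 and 0, and Rps27rt 0 throughout. Copies of 1 gene can share reads, and the sources at hand do not state how reads with several matches were treated.

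The densest members in Prmt6KO, by mean peaks per kb of window, were Rpl34-ps1 with 0.622, Rpl22l1 with 0.511 and Rpl36a with 0.454. At Rpl34-ps1, which is 413 bp long, 2 of the 3 peaks lay in the flanks, and Prmt6KO replicate 2 had 0. The longest members had lower densities of 0.293, 0.145 and 0.215. Rps23rg1 (16779 bp) had 1 and 0 WT peaks and 9 and 2 in Prmt6KO, Rps15a (11774 bp) 1 and 0, then 3 and 1, and Rpl22 (9647 bp) 0 and 0, then 5 and 0.

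Chromosome X holds Rpl39, Rpl10, Rps4x and Rpl36a. Together they had 1 and 0 WT peaks and 9 and 2 in Prmt6KO. Genes of like length, from all chromosomes used, gave 0.874 and 0.641 in WT and 5.66 and 2.14 in Prmt6KO. The WT peak lay in Rpl10, had 5 fragments and overlapped a Prmt6KO replicate 1 peak of 4 fragments. It came from WT replicate 1, the list with 1.25% of its peaks on this chromosome. Rps4x had 2 and 0 Prmt6KO peaks. Leaving out these 4 members gave a log2 difference in the observed to expected ratio of 0.18 (exact permutation p = 1.0).

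Member peaks were as low as other peaks of their lists. The median summit had 6 and 5 fragments for WT and 3 and 4 for Prmt6KO, where all peaks had medians of 6, 6, 3 and 4. The highest member summit of each list had 9, 7, 8 and 7 fragments. A q of 0.05 or below was reached by 1 member peak in WT replicate 1 and 1 in Prmt6KO replicate 1. These are 3.03% and 0.606% of the member peaks, beside 3.05% and 0.497% of all peaks in those lists. In the replicate 2 lists 0 member peaks reached it, beside 2.03% of all peaks in WT and 1.34% in Prmt6KO. The WT peak lay 3915 bp after the start of Rpl34, beyond its 3' end on chromosome 3 (130726374 to 130726821), with 9 fragments, a fold enrichment of 4.06 and a -log10 q of 1.72. A Prmt6KO replicate 1 peak of 3 fragments overlapped it. The Prmt6KO peak lay inside Rpl36a (134586441 to 134586808 on chromosome X), with 8 fragments, a fold enrichment of 5.18 and a -log10 q of 3.0. The WT lists had 0 peaks at Rpl36a, and Prmt6KO replicate 2 had 1 with 5 fragments. Rps20, a protein of the small-subunit head, had the other WT summit of at least 8 fragments, 8 in replicate 1 with a fold enrichment of 3.66.

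**Figure D3:**
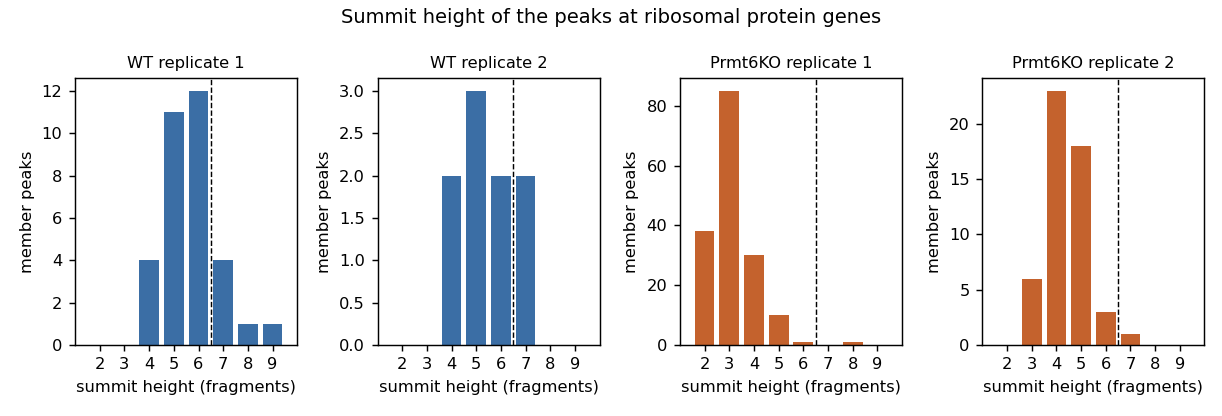
Number of member peaks (y axis, count, a scale of its own in each panel) by summit height (x axis, fragments) in the WT and Prmt6KO libraries; the dashed line at 6.5 separates heights of 7 fragments and more, the lowest height in Igf2bp2KO replicate 2. To its right lie 6 and 2 WT peaks and 1 and 1 Prmt6KO peaks.

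Summits near start sites were few. Within 500 bp of the start of the 69 members with an annotated start, the WT lists had 0 and 0 summits. Other genes gave 2.21 and 1.32 for as many starts, and other genes with a promoter GC of 57.0% or more gave 0.615 and 0.271. Expected counts this low do not let a lack of WT summits be detected. The Prmt6KO lists had 9 and 6, where other genes gave 14.9 and 5.45 and GC-rich promoters gave 9.64 and 2.01. Replicate 1 thus had fewer summits than other genes gave and about as many as GC-rich promoters. Replicate 2 had about as many as other genes and more than GC-rich promoters. None of these differences was tested. The GC-rich set was cut at the member median, so its own median GC was higher, 64.7%, and it is not matched to the members. Starts of other genes had fewer summits than the sequence around them in all 4 lists, for example 32.1 per Mb within 500 bp in WT replicate 1 and 66.5 between 2 and 1 kb upstream. The 3' ends had 5 and 1 member summits within 500 bp in WT and 28 and 11 in Prmt6KO, where 3.79, 3.05, 21.1 and 8.8 were expected from other genes.

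**Figure D4:**
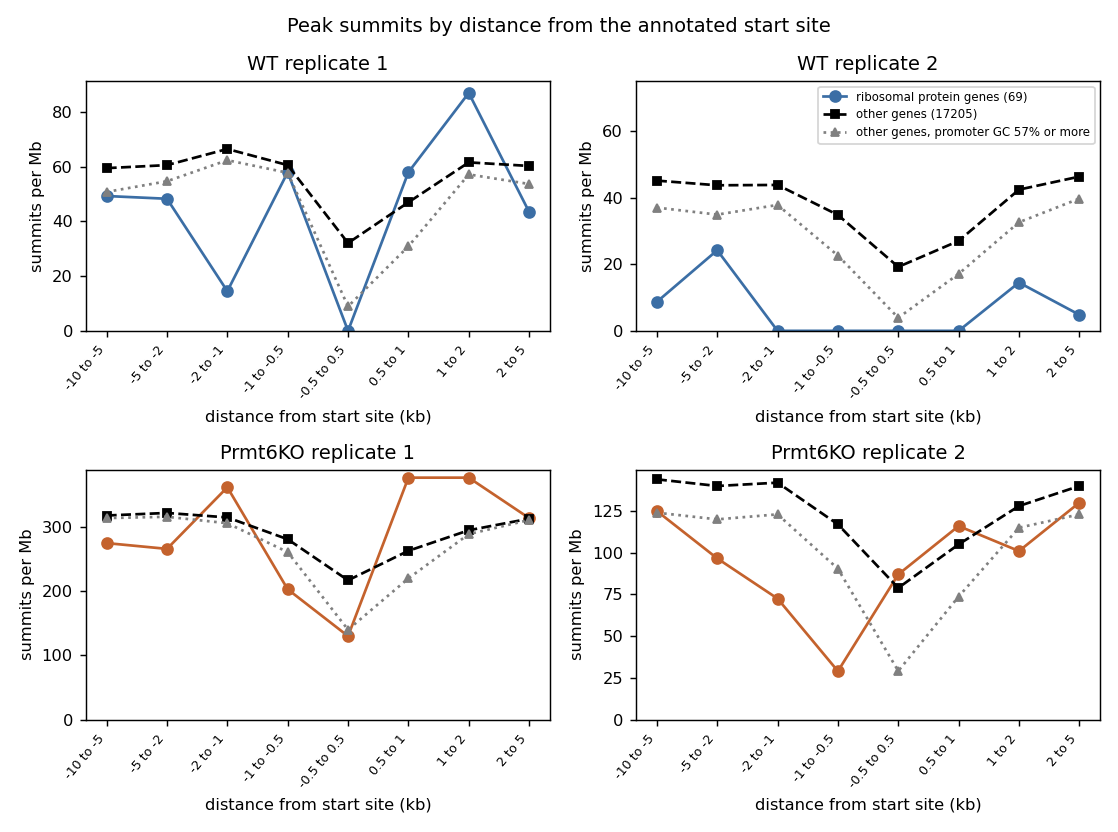
Peak summits per Mb (y axis, linear, a scale of its own in each panel) by distance from the annotated start site (x axis, kb, negative upstream, bins of unequal width) in each WT and Prmt6KO library; the coloured line is the 69 members, the dashed line 17205 other genes and the dotted line those with a promoter GC of 57% or more. In the bin around the start the members had 0, 0, 130 and 87.0 summits per Mb, and other genes 32.1, 19.2, 217 and 78.9.

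Promoter entries overlapped 0 and 0 WT peaks and 7 and 2 Prmt6KO peaks. In replicate 1 these were at Rpl9, Rplp0, Rpl28, Rps13, Rpl7l1, Rps4x and Rpl36a, and in replicate 2 at Rpl22l1 and Rpl19. No promoter had a peak in both. Relative to the start, the summit was at -351 bp in Rpl36a and at -228 bp in Rpl22l1, so both lie upstream of the letters printed. The Rpl19 summit, at -81 bp with 4 fragments and a fold enrichment of 2.26, lies within them. Of the 4 WT and Prmt6KO lists, 66.7%, 66.7%, 62.4% and 78.4% of member peaks had their summit in the gene, and the gene makes up 65.0% of the window bases.

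In Igf2bp2KO no member had a peak in either list, where 0.524 and 0.507 members were expected and 0.43% and 0.596% of all genes had one. By peaks, 1.8 and 1.36 were expected, and the Poisson intervals for a count of 0 reach 2.05 and 2.7 times these numbers. More peaks than members were expected, so some like-length genes held several peaks, which the intervals do not allow for. Scaled from the 100 kb on either side of the members, 0.0 and 0.0326 peaks were expected. No member was called, where 0.483 were expected and 0.356% of all genes were called. The 4 members called in WT counted as lost, where 4.11 were expected and 38.0% of all genes were lost, and 0 were gained, as were 0.0% of all genes. The lowest summits listed in Igf2bp2KO had 8 and 7 fragments, while 2 and 0 of the WT member peaks reached 8 fragments and 6 and 2 reached 7. The background was alike, with 1.452 and 1.335 fragments in Igf2bp2KO and 1.461 and 1.438 in WT. On the linear scale, a test chosen after seeing the data, the Igf2bp2KO libraries had 21 fewer member peaks on average, and both lay below both WT libraries (two-sided exact permutation p = 0.33, the smallest possible). That test took no account of list length, with 961 and 1221 peaks in Igf2bp2KO and 162454 and 133960 in WT. It therefore says nothing about the members in particular.

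Other genes of protein synthesis were counted in the same way, from lists chosen by name. Of 78 mitochondrial ribosomal protein genes, 15 were called in WT (13.5 expected) and 44 in Prmt6KO (44.5 expected). In Prmt6KO 13 were gained (16.8 expected) and 0 lost (0.189 expected, and 0.157% of all genes). Mrps30, for example, had 1 peak in each of the WT and Prmt6KO lists. Of 39 ribosome assembly genes, 12 were called in WT (12.2 expected), 29 in Prmt6KO (29.0 expected) and 7 gained (7.37 expected). Npm1, which encodes nucleophosmin, a nucleolar protein often mutated in leukemia, had 2, 2, 2 and 4 peaks. A list of 75 genes was matched by translation factor symbols, Eif or Eef and a digit, with a few names added. Of these, 33 were called in WT, where 24.4 were expected, and 58 in Prmt6KO, where 55.6 were expected. The match also took in genes that are not factors, such as the kinase genes Eif2ak1, Eif2ak2, Eif2ak3, Eif2ak4 and Eef2k, all among the 33. Eif4g2, which encodes a relative of the scaffold factor eIF4G, had 4, 3, 6 and 5 peaks. None of the 3 lists had a gene called in Igf2bp2KO. In the order given, 0.238, 0.0869 and 0.273 were expected, and 0.356% of all genes were called.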

How the data were processed

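H3R2me2a was measured by ChIP-seq in 2 libraries of each of 3 genotypes; the 3 input samples were not analysed here. Reads were handled with HISAT2, bedtools, MACS2 2.1.0, Trim Galore and bcl2fastq 2.17 on mm10, per the submitters' processing notes; settings are not given in the sources used here. Each deposited list holds the peaks of 1 library. Per the file headers, the authors' peak caller gave each peak a fold enrichment (a ratio of signal to background), the -log10 of its p-value and q-value, and a summit pileup, a coverage signal. The deposited lists also carry a score, which was not used. They describe and filter peaks within a list; the members named as gained were ordered by the lower fold of the 2 lists, whose backgrounds differ.

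Within each list the fold equalled pileup plus 1 over a constant background plus 1, which gave a background of 0.7365 to 1.461 fragments, the depth visible here. Igf2bp2KO pileups were multiples of 0.277 and 0.302 and were divided by these to give fragments. Read totals were not at hand.

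Gene positions came from RefSeq (GRCm38.p6), without exons; strand and start site came from its promoter table. Overlap was at least 1 bp. Expected counts are means over other genes within 10% of the length. The method was tested on simulated lists with peaks placed at random along each chromosome. Such lists cannot show whether like-length genes match the members in these data. Per-library log2 values were compared with two-sided exact permutation tests (6 splits), and no p-value was adjusted. The log2 comparisons of Prmt6KO with WT were planned. Their p-values under alternatives repeat the same comparisons, and the linear-scale test of Igf2bp2KO was not planned. Same-numbered libraries are not said to be paired. The members and gene lists, including the other protein synthesis genes, were chosen with earlier results of these data known. Genes named were those called, lost or gained (up to 10 by the lower fold), with a q of 0.05 or below, with overlapping replicate peaks, the densest, the longest, those on X, the paralogs and those without a peak. Alternatives changed the peak threshold, list length, overlap, window, comparison genes, members and libraries. Python 3.11.15, pandas 2.3.3, numpy 2.4.6 and scipy 1.17.1 were used.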

Additional observations from a re-analysis of the deposited data

How the results depend on the processing

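The log2 difference in observed over expected peaks between Prmt6KO and WT was 0.22 and stayed between 0.0164 and 0.442 under the alternatives that kept all libraries; with a library left out it ran from -0.434 (without WT replicate 2) to 0.879 (without WT replicate 1). It was 0.0743 without paralogs and copies, an alternative chosen after seeing the data. The log2 difference in peaks per kb ran from 1.47 to 3.35 with a library left out. With the replicate number as a block the 2 values were 2.41 (exact sign-flip p = 0.5, the smallest possible) and 0.223 (p = 1.0), the same as without it; the deviations of same-numbered libraries correlated at 0.0795 over all genes, across genes and not replicates, so the numbers do not show pairing.

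Counts of called, lost and gained members depend on the threshold. They are given here without the shares of like-length genes or of all genes under the same alternative. Under 3 stricter rules (fold of 4 or more, q up to 0.05, summit of 6 times the background), 0 members were called in WT or Prmt6KO, 0 lost in either knockout and 0 gained in Prmt6KO. Observed over expected was then 0.268 ± 0.38 in WT under each (SD, n = 2). In Prmt6KO it was 0.291 ± 0.412, 0.297 ± 0.42 and 0.557 ± 0.788. Replicate 2 of both genotypes had 0 such member peaks, so each mean rests on few peaks of replicate 1. A fold of 4 or more was reached there by 1 peak in WT and 2 in Prmt6KO, and a q up to 0.05 by 1 in each. These means therefore do not show a lack of strong peaks at members. The log2 differences could not be computed, because a library had 0 peaks. With gene ends alone 25 members were called in Prmt6KO. With lists of equal length 6 were called and 3 gained. With flanks of 2.5 kb 0 were lost in Prmt6KO. With a library left out, its genotype was called from 1 list, a looser rule: WT calls ran from 4 to 29 (9 without replicate 1), Prmt6KO calls from 38 to 73, Prmt6KO gains from 20 to 45 (37 without WT replicate 1), Prmt6KO losses from 2 to 4 and Igf2bp2KO losses from 4 to 29. The stricter rules, gene ends alone and equal lengths remove peaks by construction, and wider flanks add them. Igf2bp2KO had 0 member peaks under all alternatives run.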
